A study of Homo sapiens with 9 samples.

Results

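This report describes the mRNAs of 10 chemokine genes in MDA-MB-231 cells, an established human triple-negative breast cancer (TNBC) line, cultured for 24 h without or with 2-deoxy-glucose (2-DG). The genes were CXCL1, CXCL2, CXCL3, CXCL5, CXCL6, CXCL8, CXCL10, CXCL16, CCL2 and CCL20, found by their symbols among 61552 listed genes. The set was put together with the expression changes of these same libraries known, so its values are given as a description, with no p-values, and counts of these genes past a threshold support nothing. Of the 10 genes, 9 had a value above 0 in some library and 8 passed the filter on low reads (in 3 or more libraries 10 reads, scaled to the median depth, and 15 reads over the 9 libraries).

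The study addressed how changes in glycolysis and lactate alter gene expression in TNBC cells. It had 3 groups with 3 RNA-seq libraries each, all treated for 24 h. The groups were cells given phosphate-buffered saline in place of 2-DG (control, 0 mM 2-DG), cells given 10 mM 2-DG and cells given 20 mM 2-DG. 2-DG is a glucose analogue that enters cells like glucose and blocks glycolysis. All 9 libraries came from the same established line with no engineered allele, and the lactate-treated cells of the study are not analysed here. The labels do not state that the libraries of a group came from separate cultures, so SDs, SEs and p-values measure only the spread between these libraries, which may be technical. The 10 mM and the 20 mM group were compared with the same control libraries.

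Chemokines are small secreted proteins that guide the migration of leukocytes along a concentration gradient. CXCL1, CXCL2, CXCL3, CXCL5, CXCL6 and CXCL8 belong to the CXC ligands that carry an ELR motif and attract neutrophils. They bind the receptor CXCR2, and some of them, such as CXCL8, also CXCR1. Their genes lie side by side on chromosome 4 and are classical targets of NF-kB, the transcription factor activated by IL-1 and TNF. CXCL10 attracts T cells and NK cells through CXCR3, CXCL16 is made as a membrane protein and shed to attract CXCR6-positive cells, CCL2 attracts monocytes through CCR2, and CCL20 attracts CCR6-positive lymphocytes and dendritic cells. Tumor cells of the mesenchymal TNBC type are known to secrete several of the neutrophil chemokines.

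On GRCh38 with the GENCODE release 29 annotation, the 6 ELR genes spanned 358.8 kb of chromosome 4, with CXCL8 (plus strand, chr4:73740506-73743716) first. It was followed by CXCL6 (plus strand, chr4:73836497-73849064), CXCL1 (plus strand, chr4:73869393-73871242), CXCL5 (minus strand, chr4:73995642-73998779), CXCL3 (minus strand, chr4:74036589-74038807) and CXCL2 (minus strand, chr4:74097035-74099293). CXCL1 and CXCL3, which moved in opposite directions here, were 165.3 kb apart. CXCL3 and CXCL2 were 58.2 kb apart. CXCL10 lay 1921.8 kb beyond CXCL2 on the same chromosome (minus strand, chr4:76021117-76023497). CCL2 (plus strand, chr17:34255218-34257203) and CXCL16 (minus strand, chr17:4733526-4739922) lie on chromosome 17, and CCL20 (plus strand, chr2:227805739-227817564) on chromosome 2.

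The sequence upstream of the RefSeq start of the 6 ELR genes is shown because neighbours with nearly the same upstream sequence had opposite changes. RefSeq promoter sequences (GRCh38.p14) matched 8 of the 10 genes, and 100 bases before each annotated start were searched on both strands. The stretches below are 30 bases long, read 5′ to 3′ on the strand of the gene. The capitals mark the longest run of bases shared by the genes, and distances are counted from the RefSeq start (CXCL8 73740569, CXCL6 73836678, CXCL1 73869393, CXCL5 73998677, CXCL3 74038689, CXCL2 74099195). Apart from CXCL1, these starts differ from those of the GENCODE genes given above, and 4 of the 6 stretches, those of CXCL6, CXCL5, CXCL3 and CXCL2, lie inside the GENCODE gene.

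CXCL8 (plus strand, chr4:73740469-73740498, capitals 91 to 83 bases before the start): gcaaatcgtGGAATTTCCtctgacataatg
CXCL6 (plus strand, chr4:73836579-73836608, capitals 90 to 80 bases before the start): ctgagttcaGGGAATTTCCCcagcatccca
CXCL1 (plus strand, chr4:73869305-73869334, capitals 79 to 69 bases before the start): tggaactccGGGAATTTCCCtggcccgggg
CXCL5 (minus strand, chr4:73998748-73998777, capitals 91 to 81 bases before the start): atgagttcaGGGAATTTCCCcagcatccca
CXCL3 (minus strand, chr4:74038748-74038777, capitals 79 to 69 bases before the start): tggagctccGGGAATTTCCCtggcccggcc
CXCL2 (minus strand, chr4:74099253-74099282, capitals 78 to 68 bases before the start): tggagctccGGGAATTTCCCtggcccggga

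The run GGGAATTTCCC of 11 bases, which matches the NF-kB consensus on both strands, stood upstream of CXCL1, CXCL2, CXCL3, CXCL5 and CXCL6. It occurred in 0.0456% of the 35116 promoters of the same length. CXCL8 carried the 9 inner bases GGAATTTCC, found in 0.185% of the promoters and contained in the longer run. Any match to the NF-kB consensus was present in 2.02% of promoters, and among the 8 chemokine promoters read it was present in 6, the 5 named above and CCL20. Over the 100 bases, CXCL1 and CXCL3 were 90% identical, CXCL1 and CXCL2 94.1%, and CXCL3 and CXCL2 89.1%. CXCL5 and CXCL6 were 90.1% identical to each other and between 45.2% and 50% identical to CXCL1, CXCL2 and CXCL3. The AP-1 motif TGANTCA (2.75% of promoters) and the composite C/EBP-ATF motif TGATGNAA (1.34%) had no match in any of the 8 windows. Bases further upstream than these 100 were not searched, so sites there are not excluded. All matches given here are descriptions of letters in a window, and no binding was measured.

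The authors deposited FPKM values (fragments per kilobase of gene length, scaled to library size), from which whole reads could be recovered for each gene. Replicate libraries correlated with r of 0.989 to 0.996, and the 20 mM libraries differed least among themselves. The libraries held between 30974968 and 40843638 reads on genes, so 1 read on 1 kb was worth between 0.0245 and 0.0323 FPKM. As a check of the label, 4 genes listed as present in a mesenchymal breast line were read. The mesenchymal marker VIM had 243 to 313 FPKM, CD44 52.9 to 74.1, KRT8 80.5 to 153 and KRT18 126 to 164. Group means by rising dose were 285, 289 and 274 FPKM for VIM and 150, 137 and 138 for KRT18, whose ranges overlapped. CD44 (69.8, 58.3 and 56.6) and KRT8 (141, 91.3 and 84.3) had all treated libraries below all control libraries. Among genes listed as low or absent, the hormone receptor genes ESR1 and PGR stayed at or below 0.0204 FPKM and the epithelial CDH1 at or below 0.417 FPKM. ERBB2 had 5.53 to 9.11 FPKM and the epithelial EPCAM 2.61 to 4.51 FPKM, and the 5 genes of this low or absent list summed to 12.3 to 13.9 FPKM in the control, 8.56 to 9.69 at 10 mM and 8.46 to 8.92 at 20 mM 2-DG. Of 9 leukocyte markers, MS4A1 was at 0 in all 9 libraries, the pan-leukocyte gene PTPRC was at or below 0.0327 FPKM, and the T cell gene CD3E had 1 read in all. The summed FPKM of the leukocyte list was 3.20 to 4.66 in the control, 1.97 to 3.20 at 10 mM and 1.35 to 2.40 at 20 mM 2-DG. Most of it came from CD14 (1.14 to 3.83 FPKM). The endothelial list summed to 1.47 to 1.95, 1.12 to 1.45 and 0.854 to 1.05 FPKM. Most of that sum and of its fall came from PECAM1 (group means 1.72, 1.23 and 0.914 FPKM), while CDH5 had 1 read in all. The part of these lists in the chemokine values was not tested. In bulk RNA, fewer cells that express a gene and less RNA of it per cell cannot be told apart. The 20 mM values were written with a median of 15 decimals and the other 6 files with 9, so the 20 mM files were written differently, and that difference and the dose cannot be told apart.

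Control cells had high levels of 3 neutrophil chemokine mRNAs. CXCL8 had 80.8 ± 10.2 FPKM (SD, n = 3), CXCL1 72.3 ± 3.65 FPKM and CXCL2 56.3 ± 7.64 FPKM. The ranges of CXCL8 and CXCL1 overlapped, while those of CXCL1 and CXCL2 did not. CXCL3 followed at 8.06 ± 0.971 FPKM. CXCL16, CCL20, CCL2 and CXCL10 had means of 1.33, 1.12, 0.835 and 0.580 FPKM, and each of these overlapped with the next in that order. In every library, CXCL1, CXCL2, CXCL3 and CXCL8 together made up 97.2% to 98.7% of the summed FPKM of the 10 genes.

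CXCL1, which attracts neutrophils through CXCR2, had the deepest fall among the abundant chemokines. The control libraries had 70.8, 69.7 and 76.5 FPKM (3425, 3480 and 3574 reads). The 10 mM libraries had 16.9, 22.3 and 25.7 FPKM (809, 1243 and 1202 reads). The 20 mM libraries had 11.9, 11.7 and 13.1 FPKM (500, 632 and 590 reads). The 3 groups did not overlap, and each 20 mM library lay below each 10 mM library. Mean FPKM at 10 mM was 29.9% of the control and at 20 mM 16.9%. On the log2(FPKM + 1) scale the fold change was -1.71 (SE 0.12) at 10 mM, -2.47 (SE 0.12) at 20 mM and -0.76 (SE 0.12) between the doses.

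CXCL3, a close paralogue of CXCL1 with the same receptor, went the opposite way. Its 3 control libraries had 9.06, 7.12 and 8.01 FPKM (714, 579 and 610 reads). At 10 mM 2-DG there were 15.4, 15.6 and 14.9 FPKM (1197, 1410 and 1135 reads). At 20 mM there were 23.1, 19.2 and 16.6 FPKM (1589, 1694 and 1215 reads). Again the 3 groups did not overlap, here with the control lowest and the 20 mM libraries highest. The 20 mM libraries spread more (SD 3.30 FPKM) than the 10 mM libraries (SD 0.347 FPKM). Mean FPKM was 189.0% of the control at 10 mM and 243.0% at 20 mM. The log2 fold change on the log2(FPKM + 1) scale was 0.85 (SE 0.11), 1.18 (SE 0.11) and, between the doses, 0.33 (SE 0.11).

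CXCL2, the third gene of this close group, stood between the other two. The FPKM values were 60.2, 47.5 and 61.3 in the control, 40.9, 47.1 and 50.8 at 10 mM and 38.5, 37.1 and 34.4 at 20 mM 2-DG. The 10 mM libraries overlapped with the control, and the 20 mM libraries lay below all others. Mean FPKM was 82.1% of the control at 10 mM and 65.1% at 20 mM. The log2 fold change at 20 mM was -0.60 (SE 0.11) on the log2(FPKM + 1) scale.

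CXCL8, which encodes IL-8 and binds both CXCR1 and CXCR2, lies at the other end of the cluster. It had 71.1, 79.8 and 91.4 FPKM in the control, 49.8, 39.9 and 48.6 FPKM at 10 mM and 42.2, 34.8 and 35.7 FPKM at 20 mM 2-DG. All treated libraries were below all control libraries, and the doses overlapped with each other. Mean FPKM was 57.1% of the control at 10 mM and 46.5% at 20 mM, with log2 fold changes of -0.79 (SE 0.12) and -1.08 (SE 0.12) on the log2(FPKM + 1) scale.

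**Figure D1:**
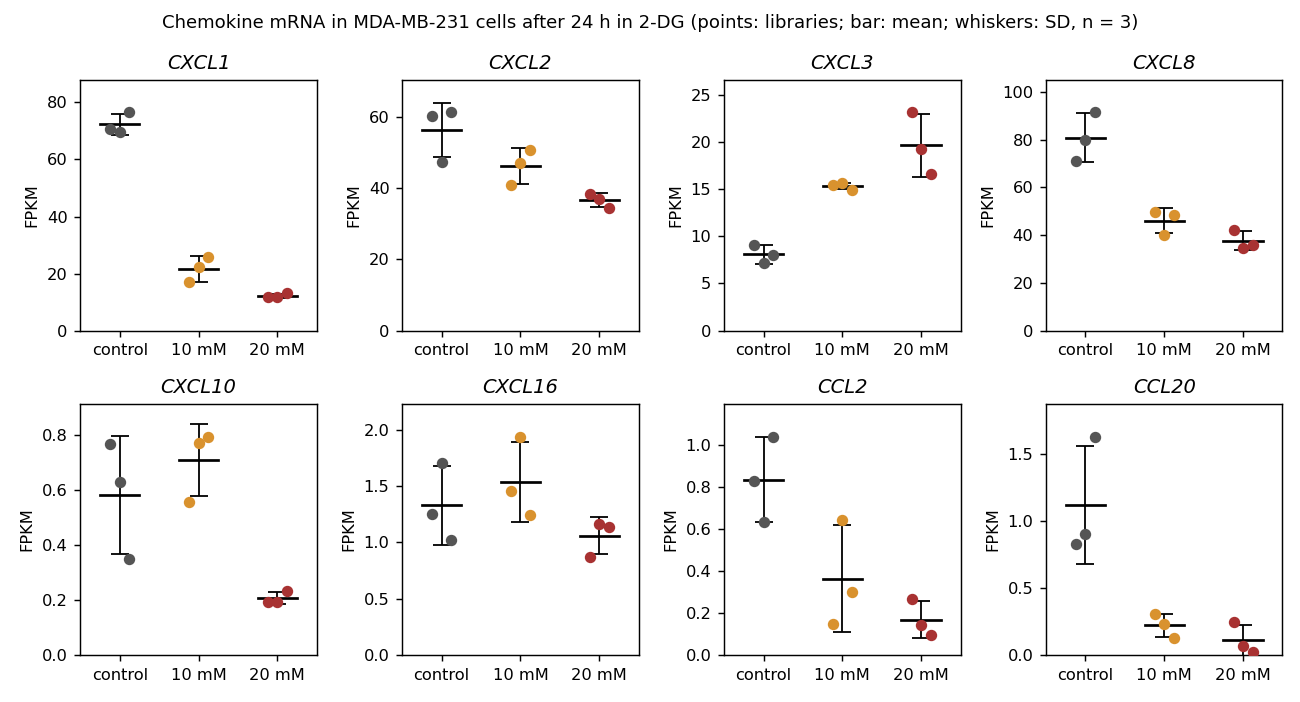
Each panel plots the FPKM (linear axis from 0) of 1 chemokine gene in the 9 libraries by 2-DG dose, with points for libraries, a bar for the mean and whiskers for the SD (n = 3). CXCL1 falls from 69.7 to 76.5 FPKM in the control to 11.7 to 13.1 at 20 mM, CXCL3 rises from 7.12 to 9.06 to 16.6 to 23.1, and all points of the lower row are under 2 FPKM.

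The ratio of CXCL3 to CXCL1 was computed within each library, where the scaling of the library cancels. It was 0.128, 0.102 and 0.105 in the control, 0.908, 0.696 and 0.580 at 10 mM and 1.95, 1.65 and 1.26 at 20 mM 2-DG. CXCL1 thus exceeded CXCL3 in all control and 10 mM libraries, and CXCL3 exceeded CXCL1 in all 20 mM libraries. The mean ratio at 20 mM was 14.5 times that of the control. The log2 ratio rose by 2.69 at 10 mM and by 3.84 at 20 mM, with an SD within groups of 0.281. Leaving out any library in turn gave 2.52 to 2.84 and 3.70 to 4.01.

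The level of this ratio depends on the lengths by which reads were divided, while a fixed length cancels from its change with dose. The length behind the FPKM of CXCL3 was 2219 bases, the whole span of the gene with its introns, since the exons of its 4 annotated transcripts together cover the span. Its coding transcript has 1075 bases, so the value can hold reads from introns. Whether such reads changed with dose unlike those of the spliced mRNA was not tested. The change of CXCL3 and of the ratio can therefore depend on the region counted. For CXCL1 the length was 1362 bases and that of the coding transcript 1097. In a setting chosen after the data were seen, the same reads were divided by the lengths of the coding transcripts. The mean ratio was then 0.186, 1.21 and 2.69 in the 3 groups. At 10 mM the libraries lay between 0.964 and 1.51, on either side of 1. Reads outside the coding transcripts were not removed, so these are not ratios of the coding transcripts alone, and their CXCL3 part can be too high.

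Reads of close paralogues can be exchanged between genes when they are aligned, and how reads with several matches were counted is not given in the sources used here. CXCL1 and CXCL3 transcripts shared 6 stretches of 50 bases and 0 of 100 bases. CXCL2 and CXCL3 shared more, 139 stretches of 50 and 79 of 100 bases, the latter being 3.27% of the CXCL3 stretches. CXCL1 and CXCL2 shared 60 of 50 and 0 of 100 bases. Shared stretches do not give the number of reads exchanged, so the values of CXCL1, CXCL2 and CXCL3 are uncertain to an extent that was not tested.

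The other ratios ordered the cluster further. CXCL2 to CXCL1 was 0.682 to 0.850 in the control, 1.98 to 2.42 at 10 mM and 2.63 to 3.25 at 20 mM 2-DG, with no overlap between groups. The ratio of CXCL3 to CXCL2 was 0.131 to 0.150, then 0.293 to 0.375, then 0.481 to 0.601, also without overlap. By contrast, CXCL8 to CXCL2 had means of 1.45 ± 0.252 (SD, n = 3), 1.01 ± 0.191 and 1.02 ± 0.0801, and its control range (1.18 to 1.68) overlapped with that at 10 mM.

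**Figure D2:**
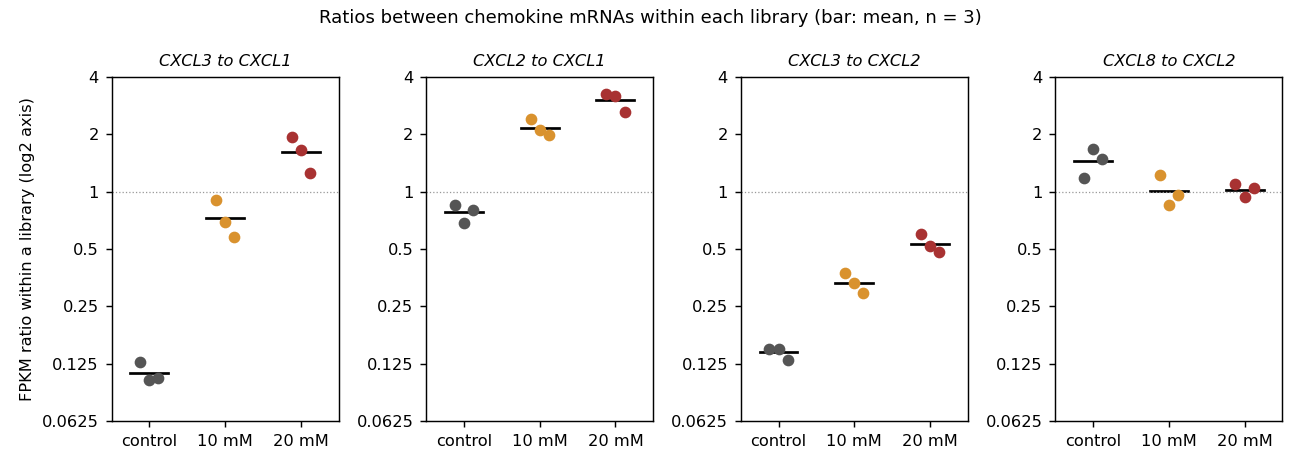
FPKM ratios between pairs of chemokine genes within each library (log2 axis) are shown by 2-DG dose, with points for libraries and a bar for the mean (n = 3). CXCL3 to CXCL1 rises from a mean of 0.112 through 0.728 to 1.62 and crosses 1, while CXCL8 to CXCL2 moves from 1.45 to 1.02.

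The make-up of the pool changed with these shifts. The summed FPKM of the 10 genes was 208 to 241 in the control, 125 to 142 at 10 mM and 101 to 117 at 20 mM 2-DG, or 59.7% and 48.6% of the control mean at the 2 doses. The share of CXCL1 went from 32.7% ± 0.918 (SD, n = 3) to 16.3% ± 2.47 and 11.4% ± 1.43. CXCL3 went from 3.65% ± 0.490 to 11.6% ± 0.996 and 18.2% ± 1.69. CXCL8 held 36.4% ± 2.92, 35.0% ± 4.39 and 34.9% ± 1.35, and CXCL2 25.4% ± 2.59, 35.0% ± 2.11 and 34.1% ± 1.38. In order of mean FPKM, CXCL1 had rank 2 of the 10 genes in the control, rank 3 at 10 mM and rank 4 at 20 mM, where CXCL3 had rank 3 and did not overlap with it. CXCL8 and CXCL2 held the first ranks at both doses and overlapped. CXCL16 had rank 5 in each group. Below it, CXCL10, CCL2 and CCL20 followed in that order at both doses, and each overlapped with the next. The shares and ranks also depend on the lengths behind the FPKM. With the same reads divided by the lengths of the coding transcripts, the mean CXCL3 to CXCL1 ratio at 10 mM was 1.21, with libraries between 0.964 and 1.51. The order of CXCL1 and CXCL3 at 10 mM thus depends on the lengths. The share of CXCL3 is lower with the length used than with its coding length, where reads outside the coding transcript were not removed.

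**Figure D3:**
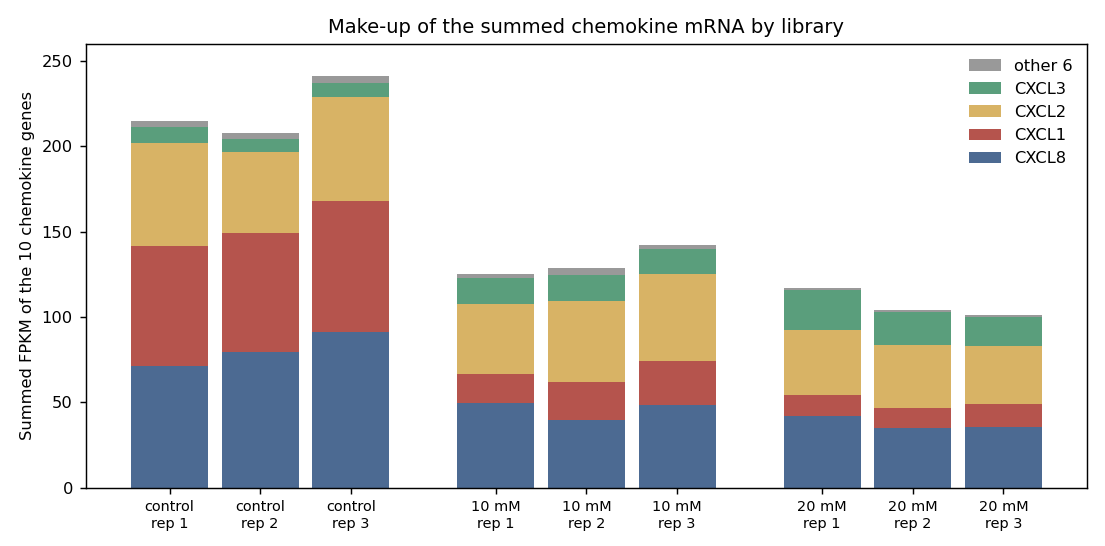
Bars stack the FPKM of the chemokine genes in each of the 9 libraries (linear axis from 0), with the 6 genes of lowest level added up as other. The total falls from 208 to 241 in the control to 101 to 117 at 20 mM 2-DG while the CXCL3 segment grows and the CXCL1 segment shrinks.

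The 4 low chemokines rested on few reads, and the pseudocount understates their changes, so read numbers are given. CCL20, a ligand of CCR6, had 47, 53 and 89 reads in the control (0.830, 0.907 and 1.63 FPKM), 17, 15 and 7 at 10 mM and 12, 4 and 1 at 20 mM 2-DG. All treated libraries lay below the control, and the doses overlapped with each other. Mean FPKM was 19.7% of the control at 10 mM and 9.66% at 20 mM. The log2 ratio of summed reads at 20 mM was -3.44, with a 95% exact binomial interval of -4.25 to -2.72 that covers counting error only.

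CCL2, the monocyte chemokine, had 57, 45 and 69 reads in the control, 10, 51 and 20 at 10 mM and 16, 11 and 6 at 20 mM 2-DG. The second 10 mM library lay within the control range, and the 20 mM libraries were all below it. The log2 ratio of summed reads was -1.13 (95% interval -1.53 to -0.74) at 10 mM and -2.34 (-2.92 to -1.79) at 20 mM. The difference between the doses was -0.21 on the log2(FPKM + 1) scale with all libraries and -0.07 without the second 10 mM library.

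CXCL10, an interferon-induced ligand of CXCR3, had 32, 27 and 14 reads in the control and 23, 37 and 32 at 10 mM 2-DG, which overlapped. At 20 mM it had 7, 9 and 9 reads (0.192, 0.193 and 0.232 FPKM), fewer than in any other library. The log2 ratio of summed reads was 0.28 (95% interval -0.18 to 0.75) at 10 mM and -1.51 (-2.23 to -0.84) at 20 mM. CXCL16 had 98 to 175 reads in the control, 119 to 221 at 10 mM and 75 to 129 at 20 mM, and the treated ranges overlapped with the control at each dose. Its FPKM at 20 mM (0.867 to 1.16) lay below that at 10 mM (1.24 to 1.94).

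The remaining ELR genes had almost no reads. CXCL5 had 2, 0 and 1 reads in the control and 0 in the 6 treated libraries. CXCL6 had 0 reads in all 9 libraries, which allows up to 3 reads in all, or 0.00429 FPKM at its annotated exon length of 2183 bases. CXCL5 and CXCL6 carry the same NF-kB-type run of 11 bases as CXCL1, CXCL2 and CXCL3, as shown above.

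The thresholds of the study (unadjusted p under 0.05 and more than 2-fold), which it set on a count-based test, were applied here to limma's test on log2(FPKM + 1). CXCL1 was called lower at 10 mM 2-DG, where 1.16% of the 16572 genes tested were called lower and 0.579% higher. At 20 mM, CXCL1 and CXCL8 were called lower and CXCL3 higher, where 1.96% of all genes were called lower and 0.965% higher. Without the third control library the log2 fold change of CXCL8 at 20 mM was -0.99, under the threshold. CXCL10, CCL2 and CCL20 had -0.38, -0.65 and -0.92 at 20 mM on this scale, where the pseudocount understates the changes of low genes. With limma-voom on the recovered reads they had -1.39, -2.37 and -3.78, so their place under 2-fold depends on the scale. Between the doses 0.00603% of all genes were called higher and 0% lower, and the difference of each of the 8 chemokines was under 2-fold on the log2(FPKM + 1) scale. The treated libraries did not overlap with the control for 3 lower and 1 higher of the 8 genes at 10 mM (22.7% of all genes lower and 17.8% higher), and for 6 lower and 1 higher at 20 mM (29.9% and 23.3%). Between the doses 4 were lower and 1 higher without overlap (7.14% and 4.71%). The genes were chosen from these same contrasts, so nothing is read from the counts. The median log2 fold change of the 8 genes was -0.36 at 10 mM and -0.62 at 20 mM on the log2(FPKM + 1) scale, and that of all genes tested -0.01 and -0.02.

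Within 500 kb of the ends of the cluster, 6 genes other than the chemokines were tested. At 20 mM 2-DG 2 of them rose and 0 fell by adjusted p, where 15.4% of all genes tested were higher and 21.6% lower. So few genes cannot be told apart from these shares. AREG, an EGF receptor ligand, had 53.7 ± 6.51 FPKM (SD, n = 3) in the control and 62.4 ± 2.51 at 20 mM 2-DG (log2 fold change 0.22, limma adjusted p = 0.104). EREG, its relative, had 5.28 ± 0.604 and 6.42 ± 0.570 FPKM (adjusted p = 0.263). MTHFD2L, a mitochondrial folate enzyme gene next to CXCL2, rose from 0.534 to 0.917 FPKM (log2 fold change 0.32, limma adjusted p = 0.0072), and EPGN from 0.0258 to 0.187 FPKM (0.21, adjusted p = 0.0143). RASSF6 and ANKRD17 had log2 fold changes of -0.04 and 0.05 (adjusted p = 0.372 and 0.879). The platelet chemokine genes PPBP and PF4V1 inside the cluster were at 0, and PF4 had at most 0.0096 FPKM in a group mean. These neighbours were named after their values had been seen.

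**Figure D4:**
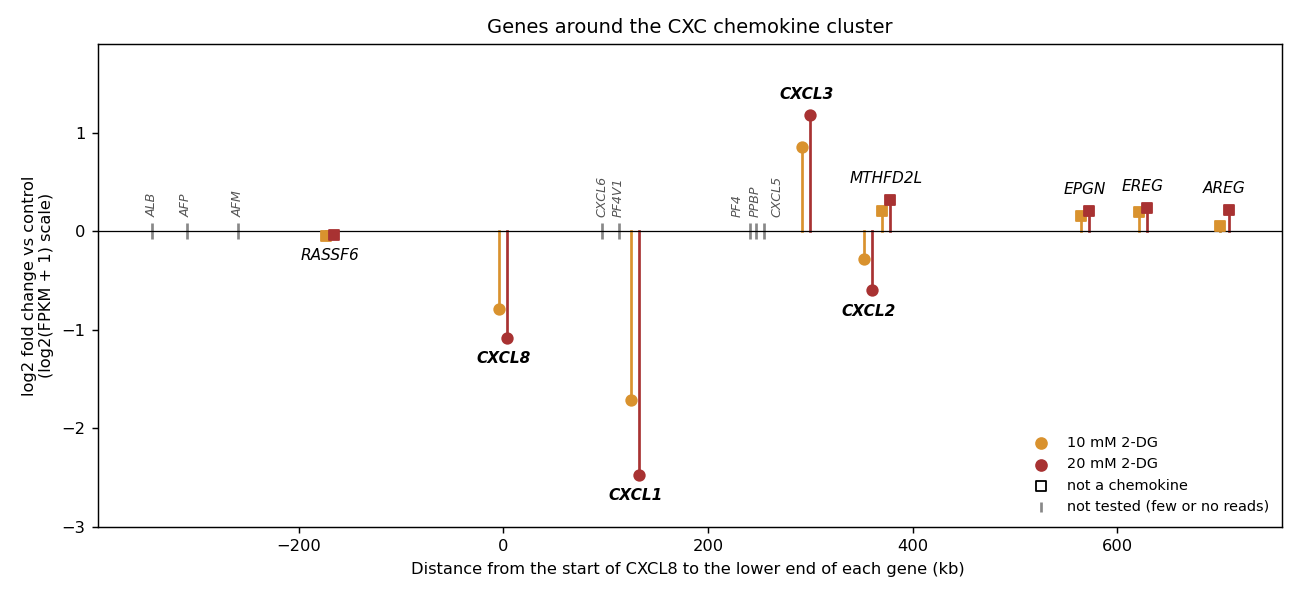
Log2 fold changes against the control (log2(FPKM + 1) scale) at 10 mM and 20 mM 2-DG are plotted for genes around the CXC cluster, by distance in kb from the start of CXCL8 to the lower end of each gene. Circles are chemokines, squares other genes, and ticks genes not tested. CXCL1 reaches -2.47 and CXCL3 1.18 at 20 mM, with CXCL5 and other genes not tested between them.

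The genes whose pattern over the 9 libraries was most like that of CXCL1 and of CXCL3 were picked from the 880 protein-coding genes with a mean of at least 1 FPKM and a range of at least 1 on the log2(FPKM + 1) scale. The 9 points share the 3 groups, so the correlations are descriptions. For CXCL1 the closest were PBK, NEK2, SKA1, EXOSC9 and CSF3, with Pearson's r of 0.993 to 0.998. PBK and NEK2 encode mitotic kinases and SKA1 a kinetochore protein. PBK had 21.8, 7.76 and 4.66 FPKM in the 3 groups. CSF3, the gene of the neutrophil growth factor G-CSF, had 9.93, 1.53 and 0.572 FPKM. For CXCL3 the closest were SPINK1, GADD45A, LTK, OSGIN1 and TSPYL2, with r of 0.984 to 0.994. GADD45A, a gene induced by stress and growth arrest, had 31.4, 46.5 and 56.2 FPKM, and OSGIN1, a gene induced by oxidative stress, 3.76, 9.28 and 11.1 FPKM. Pearson's r between CXCL1 and CXCL3 was -0.964, between CXCL1 and CXCL8 0.945 and between CXCL3 and CXCL8 -0.916.

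The rest of the chemokine system was covered by 7 lists with 146 genes, of which 92 were tested in the same fit. Under the thresholds of the study 1 of the 92 was higher and 1 lower at 10 mM 2-DG, 2 higher and 4 lower at 20 mM, and 0 between the doses. With a Benjamini-Hochberg adjusted p under 0.05 over all genes (12.1% of all genes higher and 17.5% lower at 10 mM, 15.4% and 21.6% at 20 mM), 12 were higher and 22 lower at 10 mM, and 16 higher and 29 lower at 20 mM. Between the doses, 0 of the 92 and 0 of all genes had an adjusted p under 0.05 in limma's test. At an unadjusted p under 0.05 between the doses, 4 of the 92 were higher and 9 lower with limma (2.75% and 4.13% of all genes), and 3 and 10 with limma-voom on the recovered reads (2.24% and 3.99%). The lists were drawn up with earlier results of these libraries known. The median log2 fold change of the 92 genes was -0.03 at 10 mM and -0.06 at 20 mM.

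Other chemokine ligands were scarce. Of 12 other CXC, CX3C and XC ligand genes 2 were tested. CXCL11, another CXCR3 ligand next to CXCL10, fell from 0.609 ± 0.126 FPKM (SD, n = 3) to 0.288 ± 0.202 and 0.223 ± 0.0755 (limma adjusted p = 0.0461 and 0.018). CX3CL1, a membrane-bound chemokine, had 1.18 ± 0.165 and, at 20 mM, 0.858 ± 0.0995 FPKM (adjusted p = 0.0502). XCL1 was next in level, at group means of at most 0.0633 FPKM, and not tested. Of 25 other CC ligand genes 3 were tested. CCL26, an eosinophil chemokine, was at 8.91 ± 0.823 FPKM in the control and 8.75 ± 0.855 at 10 mM, and fell to 6.40 ± 0.233 at 20 mM (log2 fold change -0.42, adjusted p = 0.00449). CCL5 fell from 0.548 ± 0.199 to 0.136 ± 0.0600 FPKM at 10 mM (adjusted p = 0.00479) and stood at 0.366 ± 0.0560 at 20 mM (adjusted p = 0.155). CCL28, a mucosal chemokine, had 1.40 ± 0.159 and, at 20 mM, 1.55 ± 0.0570 FPKM (adjusted p = 0.504).

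The receptors of the neutrophil chemokines, CXCR1 and CXCR2, were at 0 FPKM in all 9 libraries. Of 23 receptor genes 7 were tested. By adjusted p, 1 was higher and 2 lower at 20 mM 2-DG (15.4% and 21.6% of all genes). CCRL2, which binds chemerin without signaling, rose from 11.4 ± 0.701 FPKM (SD, n = 3) to 15.8 ± 1.24 at 10 mM and 15.3 ± 0.742 at 20 mM (log2 fold change 0.43 and 0.39, limma adjusted p = 0.00195 and 0.00253). The lower ones were CCR7, the lymph node homing receptor, from 0.283 ± 0.0663 to 0.0806 ± 0.00361 FPKM (adjusted p = 0.00299), and CCR10, a receptor of CCL28, from 0.447 ± 0.116 to 0.178 ± 0.0221 FPKM (adjusted p = 0.0215). CXCR4, the CXCL12 receptor, had 1.40 ± 0.249 and, at 20 mM, 1.17 ± 0.160 FPKM (adjusted p = 0.276). ACKR3, which scavenges CXCL12, had 0.641 ± 0.142 and 0.657 ± 0.121 FPKM (adjusted p = 0.908).

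Among 11 genes that bind, cleave or shed chemokines, 9 were tested. By adjusted p, 2 were higher and 3 lower at 20 mM 2-DG (15.4% and 21.6% of all genes). Syndecans carry the heparan sulfate that holds chemokines at the cell surface. SDC4 fell from 139.0 ± 1.11 FPKM (SD, n = 3) to 74.5 ± 2.29 and 71.0 ± 2.77, and SDC1 from 22.0 ± 1.35 to 11.6 ± 0.287 and 10.6 ± 0.187. Their log2 fold changes at 20 mM were -0.96 and -0.98 (limma adjusted p = 1.16e-06 and 2.31e-06). RHBDF1, a partner of the sheddase ADAM17, rose from 19.2 ± 1.49 to 26.4 ± 0.614 FPKM (0.44, adjusted p = 0.000786). The other calls were ADAM17 itself, higher (0.56, adjusted p = 0.0244), and SDC2, lower (-0.47, adjusted p = 0.00105).

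Of 23 genes of inducing cytokines and their receptors 19 were tested, with 2 higher and 5 lower by adjusted p at both 10 mM and 20 mM. Of all genes, 12.1% were higher and 17.5% lower at 10 mM 2-DG, and 15.4% and 21.6% at 20 mM. IL1B, which induces the neutrophil chemokines through NF-kB, had 27.8, 31.7 and 35.5 FPKM in the control, 10.0, 13.3 and 11.3 at 10 mM and 6.36, 6.63 and 8.68 at 20 mM. The 3 groups did not overlap. Its log2 fold change was -1.38 at 10 mM and -1.99 (SE 0.13, limma adjusted p = 3.94e-06) at 20 mM. IFNGR2 fell from 19.1 ± 0.384 FPKM (SD, n = 3) to 14.4 ± 0.630 at 20 mM (adjusted p = 0.000675). TNFRSF1A, the main TNF receptor, had 55.2 ± 2.03 and 63.1 ± 1.20 FPKM (adjusted p = 0.0801). The other genes lower at 20 mM were IL1A (-0.43, adjusted p = 0.0121), LTB (-0.72, adjusted p = 0.00015) and IL17RD (-0.44, adjusted p = 0.00457), and the higher ones were the Toll-like receptor genes TLR2 (0.30, adjusted p = 0.0234) and TLR4 (0.36, adjusted p = 0.0132).

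All 32 transcription regulators were tested. By adjusted p, 8 were higher and 5 lower at 10 mM 2-DG (12.1% and 17.5% of all genes). At 20 mM, 10 were higher and 9 lower (15.4% and 21.6% of all genes). DDIT3, which encodes the stress-induced factor CHOP and had the largest rise among the 32, went up from 27.2 ± 3.09 FPKM (SD, n = 3) to 64.1 ± 11.3 and 77.1 ± 2.37 (log2 fold change 1.47 at 20 mM, limma adjusted p = 1.22e-05). CEBPG, a C/EBP family member, rose from 13.7 ± 0.550 to 30.5 ± 0.870 FPKM at 20 mM (1.10, adjusted p = 6.69e-07), and ATF4, the effector of the integrated stress response, from 145.0 ± 6.81 to 228.0 ± 4.86 (0.65, adjusted p = 0.000135). CEBPD fell from 36.0 ± 3.62 to 11.8 ± 1.25 FPKM (-1.53, adjusted p = 1.65e-05) and BCL3, a nuclear partner of NF-kB p50 and p52, from 30.4 ± 3.00 to 13.6 ± 0.643 (-1.10, adjusted p = 1.98e-05). FOSL1, an AP-1 subunit, had 290.0 ± 19.7 and 330.0 ± 21.6 FPKM (adjusted p = 0.103). Of 13 genes of NF-kB subunits, inhibitors and kinases in the list, grouped after their values were seen, 2 were higher and 5 lower at 20 mM. The higher ones were IKBKG (0.65, adjusted p = 0.000871) and RELA (0.16, adjusted p = 0.0311). Beside BCL3, the lower ones were NFKBIZ (-0.57, adjusted p = 0.00876), NFKBIA (-0.52, adjusted p = 0.00138), CHUK (-0.29, adjusted p = 0.0353) and NFKB2 (-0.22, adjusted p = 0.0149).

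Chemokine mRNAs carry AU-rich elements that proteins bind to speed up or delay decay. The list of 20 genes for the decay and stability of such mRNAs also holds genes whose proteins do not bind these elements. All 20 were tested, and by adjusted p 1 was higher and 8 lower at 20 mM 2-DG (15.4% and 21.6% of all genes). ZC3H12A, which encodes the endonuclease Regnase-1, fell from 36.2 ± 0.722 FPKM (SD, n = 3) to 22.4 ± 2.26 and 15.6 ± 0.604 (log2 fold change -0.68 and -1.17, limma adjusted p = 0.000131 and 2.76e-06). HNRNPD, the gene of the decay factor AUF1, fell from 59.2 ± 3.08 to 39.1 ± 0.894 FPKM (-0.58, adjusted p = 0.000181), and KHSRP from 60.4 ± 1.46 to 49.7 ± 0.998 (-0.28, adjusted p = 0.00488). ZFP36L1, a decay factor of the tristetraprolin family, rose from 39.9 ± 3.57 to 55.0 ± 2.99 FPKM (0.46, adjusted p = 0.0108).

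**Figure D5:**
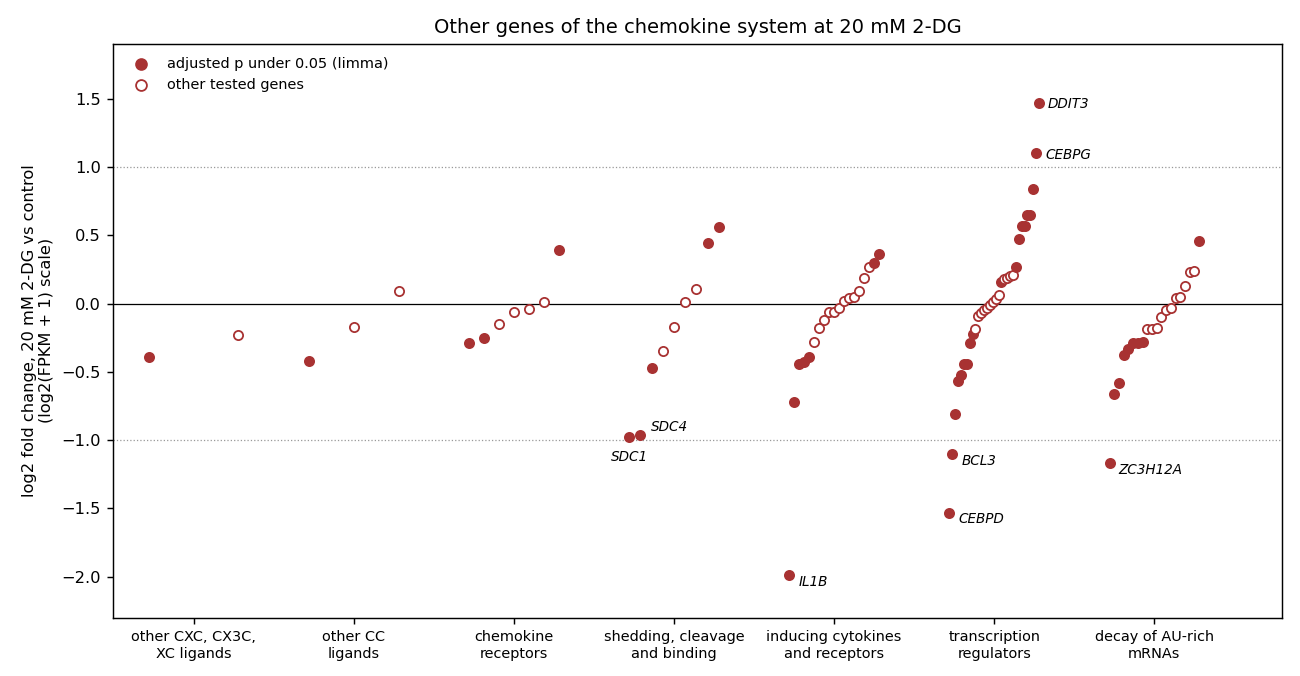
Log2 fold changes at 20 mM 2-DG against the control (log2(FPKM + 1) scale) are plotted for the tested genes of 7 chemokine-related lists, filled where limma's adjusted p was under 0.05. IL1B at -1.99, CEBPD at -1.53 and ZC3H12A at -1.17 lie lowest in their lists, and DDIT3 at 1.47 highest.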

How the data were processed

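Total RNA of MDA-MB-231 cells was extracted with a column kit, made into mRNA libraries and sequenced on an Illumina NovaSeq instrument by the authors. The submitters' processing notes name GRCh38/hg38, while the aligner, counter and annotation are not given in the sources used here. The authors deposited FPKM values per gene, 1 file per library. Exon lengths from GENCODE release 29 gave whole reads for 48.6% of the 32806 genes above 0. For the other 16864 genes, among them CXCL1, CXCL2 and CXCL8, the smallest length that made all 9 values whole was searched, after which 100% were whole, and 99.82% to 99.88% of each library total was recovered. The true length can be a multiple of the smallest one found, in which case the recovered reads of that gene are too few.

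Groups came from the labels. The 16572 genes that reached 10 reads, scaled to the median depth, in 3 or more libraries and 15 reads over the 9 libraries were fitted on log2(FPKM + 1) with limma 3.58.1 (R 4.3.3), all 9 libraries and 3 groups in 1 fit, a trended prior, Benjamini-Hochberg adjustment and two-sided p-values. The study's own count-based test was not run, because no counts were used as deposited. Changes of low genes are understated by the pseudocount of 1. Other steps used Python 3.11.15, pandas 2.3.3, scipy 1.17.1 and matplotlib 3.10.9. In a test on simulated libraries for 20 mM against the control (200 of 16572 genes changed 4-fold), limma recovered 63.0% and called 0 unchanged genes, and limma-voom recovered 99.0% and called 32. Intervals and limits cover counting error only.

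The chemokines, the gene lists and the tests were chosen with earlier results of these data known. In each list, genes called in any comparison were named, largest change at 20 mM first, with the 3 of highest mean FPKM, at most 6 a list. Further genes named to account for a count by adjusted p were chosen after their values were seen. For CXCL1 and CXCL3 the 5 genes of highest Pearson correlation were named. The alternatives were a pseudocount of 0.1, no filter or a mean of at least 1 FPKM, median-ratio scaling, a replicate block, each library left out, adjusted p, a 1.5-fold threshold, and limma-voom on the recovered reads. Lactate-treated cells and protein sequences are not analysed here.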

Additional observations from a re-analysis of the deposited data

How the results depend on the processing

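All 351 recomputed log2 fold changes of the 8 tested chemokines kept their direction, and 331 moved by less than 1 SD. Many of the 351 could not move, so these counts overstate how far the values were tried. Filters and the replicate block leave the fold change of a gene as it is. So does leaving out a library of the group that is not compared. The other 20 were CXCL10, CCL2, CCL20 and, between the doses, CXCL16, with a pseudocount of 0.1 or limma-voom. CCL20 at 20 mM was then -2.64 and -3.78, CCL2 -1.83 and -2.37, and CXCL10 -1.10 and -1.39. Leaving out the second 10 mM library took CCL2 between the doses from -0.21 to -0.07. Without the first it was -0.33. The log2 CXCL3 to CXCL1 ratio rose by 2.56 and 3.65 at the 2 doses with a pseudocount of 1.

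Counts of genes called depended on the threshold and the pseudocount. For 10 mM, 20 mM and between the doses, 96 higher and 192 lower, 160 and 324, and 1 and 0 became 438 and 566, 621 and 866, and 29 and 43 with a pseudocount of 0.1. They became 474 and 765, 674 and 1107, and 11 and 22 at 1.5-fold, and 730 and 857, 927 and 1193, and 87 and 87 with limma-voom. Between the doses they were 3 and 3 without a filter, 2 and 1 at a mean FPKM of at least 1, and 0 higher with adjusted p. Of the 92 genes of the lists, 1 higher and 1 lower at 10 mM, 2 and 4 at 20 mM and 0 between the doses were called. Lower calls became 6 and 8 at the doses with a pseudocount of 0.1 and 7 and 9 with limma-voom, each with 1 higher between the doses. Median-ratio scaling gave 2 higher at 10 mM. The 1.5-fold threshold gave 5 and 8 at 10 mM, 5 and 9 at 20 mM and 1 lower between the doses. The cause was not tested, beyond what the threshold or pseudocount itself sets.

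Leaving out each library gave 96 to 104 higher and 189 to 216 lower at 10 mM, 157 to 178 and 307 to 343 at 20 mM, and 0 to 3 and 0 to 4 between the doses. In the lists it gave 1 to 2 and 1 to 2 at 10 mM, 2 to 2 and 4 to 5 at 20 mM, and 0 to 0 between the doses. With the replicate number as a block, 96 were higher and 191 lower at 10 mM, 160 and 324 at 20 mM, and 1 and 0 between the doses, and the counts in the lists did not move. Same-numbered libraries of different groups deviated together with r of -0.406 to 0.293, and differently numbered ones with r of -0.23 to 0.521. The highest was that of the first control and the second 10 mM library (0.521). The second control and the first 10 mM library had 0.488, and the third libraries of these groups 0.293. The other pairs of a control and a 10 mM library had negative r. The numbers as given thus showed no pairing over the groups, but 3 libraries per group cannot exclude it, under these or other numbers. A block under other numbers was not tested. Depth limits the values of CXCL5, CXCL6, CXCL10, CCL2 and CCL20.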
